A study of Mus musculus with 12 samples.

Results

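The urea cycle and amino acid catabolism genes described here are 38 genes of the mouse liver, chosen by name for their part in turning amino acid nitrogen into urea or in breaking down the carbon skeletons of amino acids. All 38 were found among the 50559 genes listed in the count tables, 37 by symbol and Mut by its newer symbol Mmut. RNA was sequenced from livers of C57BL/6N mice, an inbred strain, in 4 groups with 3 libraries each, 12 in all. The NCD group ate normal chow for 12 weeks and the HFD group a diet with 60% of its energy from fat for the same time. The HFD+C1 and HFD+C2 groups ate the high-fat diet and received C1 or C2 by daily intraperitoneal injection, 5 mg/kg, over 12 weeks. The series title names the compounds as inhibitors of CYP4A, a family of fatty acid hydroxylases, and C1 and C2 are code names only. The labels give no age. They describe no vehicle injection for the NCD and HFD groups, so injection and compound cannot be told apart in the comparisons with HFD. Libraries are labelled as biological replicates.

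Amino acid breakdown releases ammonia, which is toxic. Hepatocytes, mainly those near the portal vein, convert it to urea. Aminotransferases pass nitrogen to glutamate and aspartate, glutamate dehydrogenase and glutaminase release ammonia in the mitochondrion, and the cycle enzymes join ammonia and aspartate nitrogen into urea. The carbon skeletons go to glucose, ketone bodies or the citric acid cycle. Fasting, glucagon, glucocorticoids and dietary protein are known to raise many of these genes in liver.

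RefSeq (GRCm38.p6) promoter windows, 250 bases before to 50 after the annotated start, were on hand for 30 of the 38 genes. Asl, Cps1, Gls2, Gpt, Kynu, Mut and Sds were among those with no entry. The upstream stretches of Otc and Nags are shown because both genes had NCD and HFD levels that did not overlap, and that of Got1 because it was among the most variable genes within groups. Each is printed 5′ to 3′ on the gene's strand and ends before the first base of the gene in RefSeq and GENCODE. Capitals mark letters that matched a motif.

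Otc, chrX:10252055-10252229, plus strand: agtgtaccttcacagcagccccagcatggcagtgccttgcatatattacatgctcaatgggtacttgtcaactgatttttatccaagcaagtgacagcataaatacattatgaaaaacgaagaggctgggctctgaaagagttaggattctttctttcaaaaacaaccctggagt

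Nags, chr11:102145263-102145512, plus strand: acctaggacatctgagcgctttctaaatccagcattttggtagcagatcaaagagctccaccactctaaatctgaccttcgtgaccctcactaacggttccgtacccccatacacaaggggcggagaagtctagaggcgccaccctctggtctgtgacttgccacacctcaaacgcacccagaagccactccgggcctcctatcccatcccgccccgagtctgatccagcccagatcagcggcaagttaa

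Got1, chr19:43524606-43524855, minus strand: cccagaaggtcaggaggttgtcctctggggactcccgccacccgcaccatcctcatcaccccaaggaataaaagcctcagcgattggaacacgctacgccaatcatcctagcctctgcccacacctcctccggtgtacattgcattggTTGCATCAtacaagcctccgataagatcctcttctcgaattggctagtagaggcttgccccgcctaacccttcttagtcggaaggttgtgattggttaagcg

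Motifs were searched as exact letters on both strands of the whole 300 base windows. The amino acid response element TGATGNAA, a site for ATF4, matched only Got1 among the 30 genes, in its reverse complement starting 102 bases before the gene, and matched 3.97% of all 32851 windows. The cyclic AMP response element TGACGTCA matched none of the 30 genes and 1.79% of all windows. Its core letters TGACG, which the full element contains, matched Aass, Ftcd, Nags and Pcca and 20.8% of all windows. The Nags match lies after the gene's start and is not in the stretch shown. The C/EBP letters TTGCNNAA matched Aass, Hal, Hgd and Prodh2 and 10.8% of all windows. The HNF4 letters CAAAGTCCA and the glucocorticoid response element matched none of the 30 genes, and each matched 0.475% of all windows. The TATA box TATAAA matched Bckdk, Ftcd, Got2, Hal, Hgd and Tdo2 and 13.6% of all windows.

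Levels are given as CPM, read counts scaled to a common library total, on a TMM scale over the 12 libraries. Reads in genes ranged from 4281210 to 32124248 per library, and 3 reads, taken as the floor, equal 0.0934 to 0.701 CPM. Alb, the albumin gene of hepatocytes, was between 10780 and 111500 CPM, while Prss2 of pancreatic acinar cells was at 0 in all 12 libraries. Reads not assigned to a gene made up 58.2% of NCD replicate 1, 47.1% of HFD+C2 replicate 1 and between 27.3% and 40.7% of the remaining 10 libraries. NCD replicate 1 correlated at 0.912 and 0.939 (Pearson, log2 CPM over 8472 genes, which are not independent replicates) with the other NCD libraries, which correlated at 0.978 with each other. HFD+C2 replicate 1 correlated at 0.949 and 0.947 with its group, against 0.987 between the other libraries of the group. Counts over the 38 genes, and the values of most genes named for a comparison, are therefore also given without these libraries.

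The 38 genes together took 1.31% to 2.03% of the gene reads in NCD, 1.61% to 1.83% in HFD, 1.80% to 2.08% in HFD+C1 and 1.29% to 2.15% in HFD+C2. NCD replicate 1 held the lowest level of 18 of the 38 genes, which is 47.4% of them against 31.0% of 13466 expressed genes. HFD+C2 replicate 1 held the lowest level of 12, or 31.6% against 15.2%. HFD+C2 replicate 2 held the highest level of 13 genes, or 34.2% against 5.96%, among them Cps1, Otc and Nags of the cycle and its entry. The summed level of 5 measured hepatocyte markers of 6 listed moved with these libraries. It was 32440 in NCD replicate 1 against 74920 and 79320 CPM in the other NCD libraries, and 81900 in HFD+C2 replicate 1 against 150600 in replicate 2 and 108800 in replicate 3. Apob, one of these markers, went the other way in HFD+C2 replicate 1, at 3863 CPM against 3380 and 3414 CPM in the other HFD+C2 libraries. Its part in the levels below was not tested. In whole liver, fewer cells of a type and less RNA per cell cannot be told apart.

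**Figure D1:**
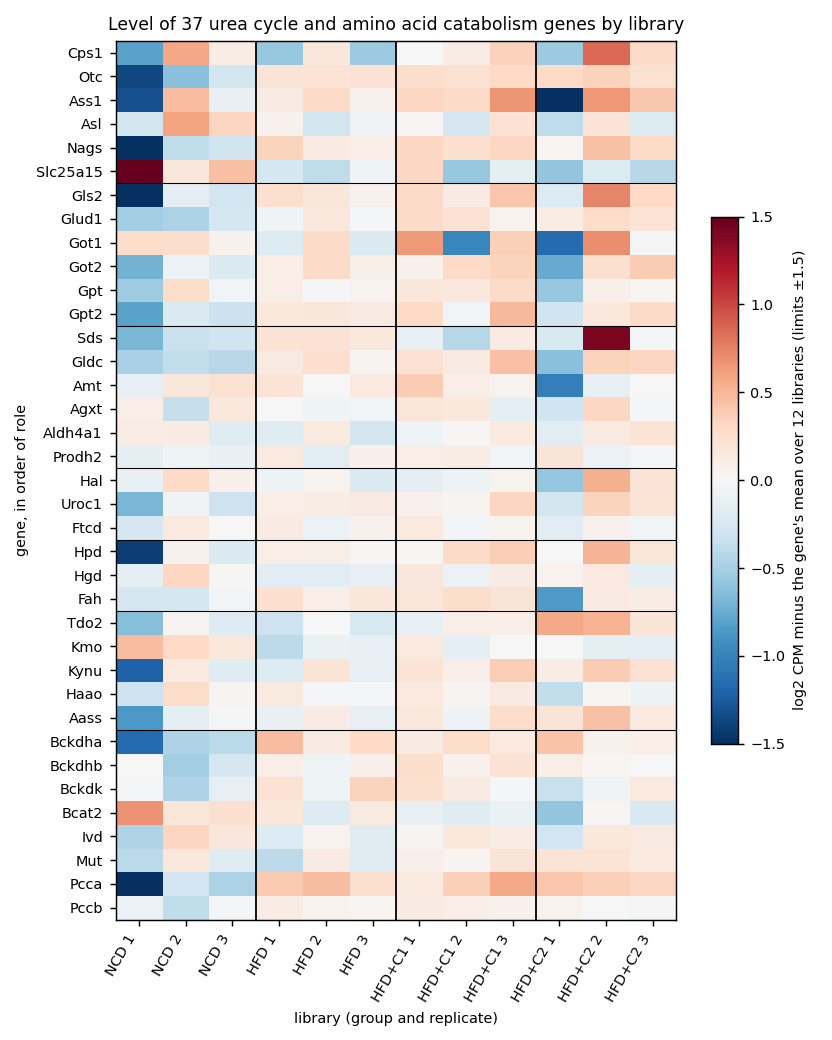
Heat map of 37 of the 38 genes (rows, in order of role) in the 12 libraries (columns, by group and replicate); colour is log2 CPM minus the gene's mean over the 12 libraries, with limits at ±1.5. Of the 37 genes drawn, NCD replicate 1 is the lowest library for 17, HFD+C2 replicate 1 is the lowest for 12, and HFD+C2 replicate 2 is the highest for 12.

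Levels of different genes were compared per kilobase of exon. In HFD, Ass1 (argininosuccinate synthase) had a mean of 1110 CPM per kb and Hpd (4-hydroxyphenylpyruvate dioxygenase, of tyrosine breakdown) 1083 CPM per kb. Tdo2 (tryptophan dioxygenase) had a mean of 329 and Fah (the last enzyme of tyrosine breakdown) of 278 CPM per kb. Ass1 and Hpd swapped places in HFD+C2, where the Hpd mean was 1223 and the Ass1 mean 1052 CPM per kb. Ass1 was at 689 CPM in HFD+C2 replicate 1, against 3756 and 3174 CPM in replicates 2 and 3. Hpd was at 2188 CPM in that library, against 3137 and 2480 CPM, so the swap rests on replicate 1. Bcat2 (the mitochondrial branched-chain aminotransferase) at 5.29 and Bckdk (the kinase that turns off branched-chain ketoacid dehydrogenase) at 3.03 CPM per kb were lowest, and these were also the lowest in the other 3 groups. Within groups, the median SD of log2 CPM over the 38 genes was 0.30 in NCD, 0.11 in HFD, 0.14 in HFD+C1 and 0.24 in HFD+C2, against 0.39, 0.17, 0.17 and 0.26 over all expressed genes. Without replicate 1 it was 0.16 in NCD and 0.10 in HFD+C2. Got1 (cytosolic aspartate aminotransferase) was the most variable of the 38 within HFD+C1, with 248, 80.5 and 204.5 CPM.

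Genome positions overlap another listed gene for 11 of the 38. Reads of Bcat2 and 0610005C13Rik, of Sds and Plbd2, and of Gls2 and Spryd4 are the overlaps with most counts, and strand use in counting is not given in the sources used here, so reads of such pairs may not be told apart. Got2 has a named pseudogene, and its counts are uncertain to that extent.

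The first comparison asks what 12 weeks of high-fat diet do to these genes. With all 6 libraries, edgeR's quasi-likelihood test called 0 of the 38 genes at an adjusted p under 0.05, against 6.03% of all 13864 genes tested (359 higher, 477 lower). Scaling by library size alone changed that split to 241 higher and 864 lower and also called 0 of the 38. At an unadjusted p under 0.05 there were 12 of 38 genes, or 31.6%, against 28.9% of all genes. That count was 16 without NCD replicate 1 (42.1% against 28.8%) and 7 without HFD replicate 2 (18.4% against 20.3%). With each library left out in turn it ran from 6 (without HFD replicate 1, 15.8% against 17.0%) to 16. NCD and HFD levels did not overlap for 14 genes that were higher and 3 that were lower in HFD. Together these were 44.7% of the 38 against 37.1% of all genes. On the library-size scale the counts were 11 and 6, where Got2, Pccb and Uroc1 overlapped and Amt, Hal and Hgd were lower. The 37.1% is on the TMM scale, and no share of all genes is given for the library-size scale. The log2 change was above 0 for 27 of 38 genes, against 48.5% of all genes, and for 20 of 38 when scaled by library size alone. That 48.5% is on the TMM scale, and library-size scaling also lowered the median change of all genes, as given further below. With TMM the median log2 change of the 38 was 0.26 against -0.02 over all genes. It was 0.05 over the 6341 genes expressed at or above the lowest of the 38. Without NCD replicate 1, the test called 9 of the 38 (7 higher, 2 lower), or 23.7%, against 13.7% of 13412 genes. The median of the 38 was then 0.05 and 20 of 38 were above 0, against 50% of all genes. DESeq2 called 8 of the 38, against 16.6% of all genes, a single fit over the 12 libraries called 5, against 17.4%, a fit with no filter on low counts called 10, against 12.7%, and limma-voom with library weights called 12, against 23.2%. Bckdha, Otc and Slc25a15 were each called under 4 of the 9 alternatives that left out no library. Gpt2, Sds, Gldc, Nags and Pcca were each called under 3 of these.

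Of the cycle enzymes described here, Otc was higher in HFD in every library, while Cps1, Ass1 and Asl overlapped between the diets. Otc (ornithine transcarbamylase, which makes citrulline in the mitochondrion; chrX:10252230-10321024 in GRCm38.p6, as for all positions given) was at 169, 283 and 362.5 CPM in NCD and at 499, 506 and 507 CPM in HFD. The lowest HFD library exceeded the highest NCD library, and the HFD libraries lay within 10 CPM of each other. With all libraries the log2 change was 0.91 (SE 0.27, edgeR adjusted p = 0.0762). Without NCD replicate 1 it was 0.64 (adjusted p = 0.0176).

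Cps1 (carbamoyl phosphate synthetase, the entry step that fixes ammonia; chr1:67122426-67231267) was at 679, 1768 and 1277 CPM in NCD and at 797.5, 1330 and 811 CPM in HFD. The groups overlapped, with NCD replicate 1 at the bottom of both. Its log2 change was -0.33 (SE 0.36, adjusted p = 0.575), and -0.63 without NCD replicate 1 (adjusted p = 0.0755). limma-voom with library weights, an alternative added later, gave -0.69 (adjusted p = 0.0213). Leaving out each library in turn moved it between -0.63 and 0.04.

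Ass1, which joins citrulline and aspartate (chr2:31470270-31520670), was at 963.5, 3304 and 2216 CPM in NCD and at 2615, 2918 and 2509 CPM in HFD. The HFD libraries lay inside the NCD range. Ass1 had a log2 change of 0.33 (SE 0.39, adjusted p = 0.603), and of -0.04 without NCD replicate 1.

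Asl (argininosuccinate lyase, which yields arginine and fumarate; chr5:130011258-130024381) was at 348, 643 and 527 CPM in NCD and at 441, 349 and 408 CPM in HFD. NCD replicate 1 was again the lowest NCD library and made the groups overlap. Asl had a log2 change of -0.32 (SE 0.25, adjusted p = 0.416), and of -0.55 without that library (adjusted p = 0.0416). So in the fit without NCD replicate 1 these cycle enzymes differed in direction: Otc was called higher, Asl was called lower, and Ass1 and Cps1 were not called. Asl was called in no other fit run. Otc was also called under 4 of the 9 alternatives that left out no library.

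The genes that serve the cycle also differed in direction. Nags (N-acetylglutamate synthase, which makes the activator of Cps1; chr11:102145513-102149528) was at 16.5, 36.3 and 38.4 CPM in NCD and at 59.6, 51.6 and 50.7 CPM in HFD. All HFD libraries were above all NCD libraries, with a log2 change of 0.85 (SE 0.30, adjusted p = 0.112) that was 0.53 without NCD replicate 1 (adjusted p = 0.0344). Slc25a15 (the carrier that exchanges ornithine and citrulline across the mitochondrial membrane; chr8:22375550-22398621) was at 810.5, 279 and 339.5 CPM in NCD and at 207, 190 and 237 CPM in HFD. Here NCD replicate 1 was the highest of the 12 libraries, and all HFD libraries were below all NCD libraries. Its log2 change was -1.15 (SE 0.38, adjusted p = 0.0937), and -0.55 without NCD replicate 1 (adjusted p = 0.0389). With each of the 6 libraries left out in turn, it ran from -1.39 to -0.55.

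**Figure D2:**
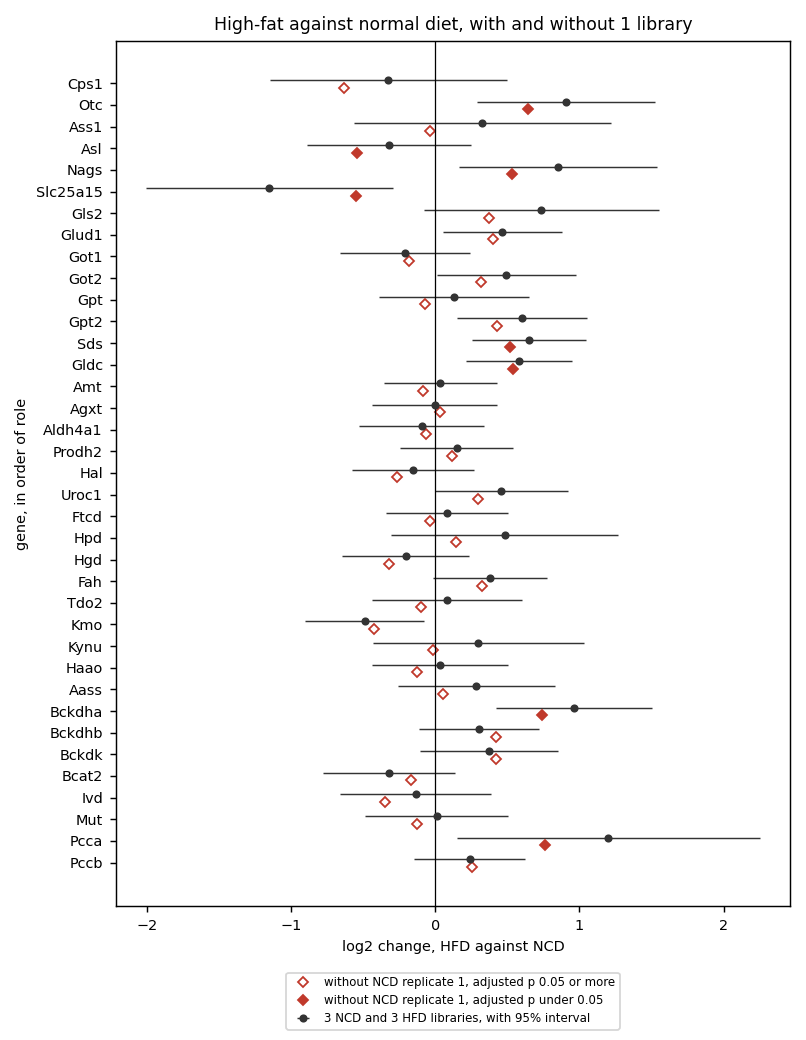
Log2 change of HFD against NCD (horizontal axis) for 37 of the 38 genes (vertical axis, in order of role); black points are the fit on all 6 libraries with bars for the 95% interval, and red diamonds the fit without NCD replicate 1, filled where the adjusted p was under 0.05. None was called with all 6 libraries; 8 filled diamonds show those drawn that were called without NCD replicate 1, 6 to the right of 0 and 2 to the left.

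Genes of ammonia release and transamination had log2 changes above 0 for 5 of 6 members in HFD, and for 4 of 6 when scaled by library size alone. Gpt2 (mitochondrial alanine aminotransferase) was at 96.5, 145 and 134 CPM in NCD and at 188, 189 and 184.5 CPM in HFD. The diets did not overlap, and the log2 change was 0.60 (SE 0.20, adjusted p = 0.0959). Glud1 (glutamate dehydrogenase), Got2 (mitochondrial aspartate aminotransferase) and Gls2 (liver-type glutaminase) were also higher in each HFD library (Got2 not on the library-size scale), with log2 changes of 0.46, 0.49 and 0.74. They were 0.40, 0.32 and 0.37 without NCD replicate 1. Gpt (cytosolic alanine aminotransferase) and Got1 overlapped between the diets, with log2 changes of 0.13 and -0.21, and of -0.07 and -0.18 without that library. The Gpt2 change was then 0.43, and 4 of the 6 were above 0. edgeR called none of these 6 with or without NCD replicate 1. Gpt2 was called by DESeq2 (adjusted p = 0.0247), with no filter on low counts (0.0316) and by limma-voom with library weights (0.0188). Glud1 was called by DESeq2 (adjusted p = 0.0202), and Gls2 with no filter (adjusted p = 0.0151).

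In serine and glycine breakdown, Sds and Gldc were higher in HFD in every library. Sds (serine dehydratase, which makes pyruvate and ammonia; chr5:120476547-120483932) was at 51.7, 66.4 and 67.9 CPM in NCD and at 97.3, 97.4 and 93.2 CPM in HFD. NCD replicate 1 was the lowest of the 12 libraries, and the diets did not overlap. Sds had a log2 change of 0.65 (SE 0.17, adjusted p = 0.0612), and of 0.52 without that library (adjusted p = 0.0305). Gldc (the decarboxylase of the glycine cleavage system; chr19:30098441-30175441) was at 110, 119 and 115.5 CPM in NCD and at 169, 183 and 158 CPM in HFD. The 3 NCD libraries lay within 10 CPM of each other and below all HFD libraries. Gldc had a log2 change of 0.58 (SE 0.16, adjusted p = 0.0645), and of 0.54 without NCD replicate 1 (adjusted p = 0.0319). Amt (the aminomethyltransferase of the same system), Agxt (which detoxifies glyoxylate), Aldh4a1 (of proline breakdown) and Prodh2 (of hydroxyproline breakdown) overlapped between the diets, with log2 changes from -0.09 to 0.15. They were -0.08 for Amt, 0.04 for Agxt, -0.06 for Aldh4a1 and 0.12 for Prodh2 without NCD replicate 1.

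Genes of histidine breakdown were Hal (histidase), Uroc1 (urocanase) and Ftcd (which passes the formimino group to folate). Their log2 changes were -0.15, 0.46 and 0.08, and of these Uroc1 had diets that did not overlap on the TMM scale (NCD 156, 241 and 202 CPM, HFD 268, 270 and 275 CPM), with a log2 change of 0.29 without NCD replicate 1, where Hal was at -0.26 and Ftcd at -0.03. In tyrosine breakdown Hpd, Hgd (homogentisate dioxygenase) and Fah had log2 changes of 0.48, -0.20 and 0.38. Hpd was at 823 CPM in NCD replicate 1, against 2301 and 1883 CPM in the other NCD libraries and 2221 to 2351 CPM in HFD, and its log2 change was 0.14 without that library. Fah was at 459, 455.5 and 531 CPM in NCD and at 651, 585 and 615 CPM in HFD, without overlap. Fah and Hgd had log2 changes of 0.33 and -0.32 without NCD replicate 1.

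In tryptophan breakdown, Kmo (kynurenine monooxygenase) was lower in HFD in every library, at 457, 407 and 370 CPM in NCD and at 252, 310.2 and 304 CPM in HFD. Kmo had a log2 change of -0.49 (SE 0.18, adjusted p = 0.125), and of -0.42 without NCD replicate 1 (adjusted p = 0.0922). It was called lower by DESeq2 (adjusted p = 0.0283) and by limma-voom with library weights (adjusted p = 0.0359). Tdo2, Kynu (kynureninase), Haao (which follows Kynu) and Aass (the start of lysine breakdown) overlapped between the diets, with log2 changes of 0.08, 0.30, 0.03 and 0.29. Kynu, Tdo2, Haao and Aass were at -0.01, -0.10, -0.12 and 0.05 without NCD replicate 1.

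In branched-chain and propionate breakdown, Bckdha and Pcca were higher in HFD in every library. Bckdha (the E1 alpha subunit of branched-chain ketoacid dehydrogenase; chr7:25629852-25658782) was at 88.4, 144 and 151 CPM in NCD and at 274.5, 219 and 245 CPM in HFD. The lowest HFD library was well above the highest NCD library. Bckdha had a log2 change of 0.96 (SE 0.24), and its adjusted p of 0.0506 was the smallest of the 38. Without NCD replicate 1 it was 0.74 (adjusted p = 0.00821). With no library left out, Bckdha was called by DESeq2 (adjusted p = 0.00219) and by limma-voom with library weights (0.000923). It was also called by edgeR with no filter on low counts (0.000673) and with all 12 libraries in one fit (0.0107). Bckdhb, the partner E1 beta subunit, had a log2 change of 0.30, and Bckdk one of 0.37, both with overlapping diets. Without NCD replicate 1 these were 0.42 and 0.425, and limma-voom with library weights called Bckdhb (adjusted p = 0.0416).

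Pcca (the alpha subunit of propionyl-CoA carboxylase; chr14:122484365-122889944) was at 12.8, 58.6 and 51.5 CPM in NCD and at 94.1, 98.6 and 84.8 CPM in HFD. NCD replicate 1 lay far below its group, and the other NCD libraries were still below all HFD libraries. Pcca had a log2 change of 1.20 (SE 0.46, adjusted p = 0.134), and of 0.76 without NCD replicate 1 (adjusted p = 0.00574). Pccb, the beta subunit, had a log2 change of 0.24, Bcat2 -0.32, Ivd (isovaleryl-CoA dehydrogenase) -0.13 and Mut (methylmalonyl-CoA mutase) 0.01. Of these, Pccb was higher (not on the library-size scale) and Bcat2 lower in every HFD library, and without NCD replicate 1 the log2 changes were 0.26 for Pccb, -0.17 for Bcat2, -0.35 for Ivd and -0.13 for Mut.

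Of 64 other genes of the same pathways, 58 were tested for diet, and 3 were called higher and 3 lower, or 10.3% against 6.03% of all genes. Grhpr (glyoxylate and hydroxypyruvate reductase) rose from 68.9, 117 and 142 CPM in NCD to 271, 223 and 245.5 CPM in HFD (log2 change 1.19, SE 0.27, adjusted p = 0.0441). Agxt2 (a mitochondrial aminotransferase for glyoxylate) rose from 121 to 137 CPM in NCD to 198 to 216 CPM in HFD (0.69, adjusted p = 0.0464), and Hykk (hydroxylysine kinase) from 13.6 to 32.0 CPM to 48.2 to 54.9 CPM (1.23, adjusted p = 0.0477). None of these 3 overlapped between the diets.

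Gcat (of threonine breakdown) fell from 112, 90.9 and 99.5 CPM to 47.8, 42.9 and 45.0 CPM (log2 change -1.14, SE 0.16, adjusted p = 0.0145). Acmsd (which steers tryptophan carbon away from NAD synthesis) fell from 11.6 to 16.7 CPM to 4.58 to 6.26 CPM (-1.38, adjusted p = 0.0237). Qdpr (which regenerates the cofactor of phenylalanine hydroxylase) fell from 564 to 839 CPM to 328 to 336 CPM (-1.05, adjusted p = 0.0317). Without NCD replicate 1, 16 of the 58 were called (7 higher, 9 lower), or 27.6% against 13.7% of all genes, and these include all 6. Bcat1, Ca5a, Dao, Slc25a2 and Tdh were among those with too few counts to be tested.

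Mitochondrial genes took 2.36% to 3.05% of gene reads in NCD and 8.03% to 9.43% in HFD, and hepatocyte markers summed to 32440 to 79320 CPM in NCD and 91640 to 108300 CPM in HFD. Serpina1c, one of these markers, went the other way, from 5856 to 7197 CPM in NCD to 3925 to 4503 CPM in HFD. Reads not assigned to a gene were 35.7% to 58.2% in NCD and 31.9% to 33.0% in HFD. Their part in the diet results was not tested.

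The second comparison asks what C1 does in high-fat-fed liver. Of the 38 genes, 0 were called, against 0.0524% of 13358 genes (7 in all, each lower in HFD+C1), and the smallest adjusted p was 0.607. At an unadjusted p under 0.05 there were 2 genes, or 5.26%, against 7.75% of all genes. Without HFD replicate 2 there were 9 (23.7% against 13.6% of all genes), and without HFD+C1 replicate 2 there were 4 (10.5% against 6.64%). Without each other library there were 0 or 1 (0% or 2.63%, against 4.2% to 7.11% of all genes). With voom library weights there were 8 (21.1% against 13.8%). DESeq2 also called 0 of the 38. Log2 changes were above 0 for 33 of 38 genes (34 when scaled by library size alone), against 51.2% of all genes, with a median of 0.11 against 0.01 and a range from -0.33 to 0.43. The 51.2% is on the TMM scale. The 95% interval lay between -1 and 1 for 38 of 38 genes. All 7 genes of the cycle and its entry and all 6 of ammonia release and transamination had log2 changes above 0, with medians of 0.12 and 0.14.

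Cps1 was at 1178, 1271 and 1500 CPM in HFD+C1, against 797.5, 1330 and 811 CPM in HFD. The HFD+C1 libraries lay above HFD replicates 1 and 3, and HFD replicate 2 lay among them. Cps1 had a log2 change of 0.43 (SE 0.18, adjusted p = 0.616). Without HFD replicate 2 it was 0.71 (adjusted p = 0.0183), and Cps1 was then the only one of the 38 called, against 0.767% of all genes. Ass1 was at 2968, 2927 and 3792 CPM in HFD+C1, each above all HFD libraries (not on the library-size scale), with a log2 change of 0.27 (SE 0.13, adjusted p = 0.680). Without HFD+C1 replicate 3 it was 0.14.

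Sds was at 76.8, 62.1 and 91.0 CPM in HFD+C1, each below all HFD libraries (93.2 to 97.4 CPM). Its log2 change was -0.33 (SE 0.14, adjusted p = 0.607), and -0.20 without HFD+C1 replicate 2. Hgd was at 782, 655 and 757 CPM in HFD+C1 against 616 to 637 CPM in HFD, also without overlap (0.22, SE 0.12, adjusted p = 0.700). Kynu was at 170.2, 157.5 and 189.9 CPM in HFD+C1 against 128.5, 169.8 and 135 CPM in HFD (0.26, SE 0.13, adjusted p = 0.700). Ivd was at 195.5, 212 and 206 CPM in HFD+C1 against 165, 198 and 167 CPM in HFD (0.21, SE 0.12, adjusted p = 0.739). Kynu and Ivd overlapped between the groups. Groups did not overlap for 5 of the 38 genes, which also include Otc and Gpt, or 13.2% against 12.4% of all genes.

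The other pathway genes held 0 calls among 58 tested for C1, against 0.0524% of all genes, and 6 had an unadjusted p under 0.05, or 10.3% against 7.75%. Oat (ornithine aminotransferase) was at 1697, 1355 and 1286 CPM in HFD+C1 and at 772, 1159 and 822 CPM in HFD, with no overlap (log2 change 0.66, SE 0.16, adjusted p = 0.255). Slc38a3 and Slc38a4, amino acid transporters, had log2 changes of 0.40 (adjusted p = 0.366) and 0.35 (adjusted p = 0.461), also with no overlap. The 6 Kupffer cell and macrophage markers, Clec4f among them, summed to 211 to 280 CPM in HFD+C1 and to 130 to 172 CPM in HFD, with none at 0. Mitochondrial genes took 5.60% to 7.27% of gene reads in HFD+C1 and 8.03% to 9.43% in HFD, and reads not assigned to a gene were 27.3% to 28.7% against 31.9% to 33.0%. The part of these measures in the C1 values, the 33 of 38 above 0 included, was not tested.

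**Figure D3:**
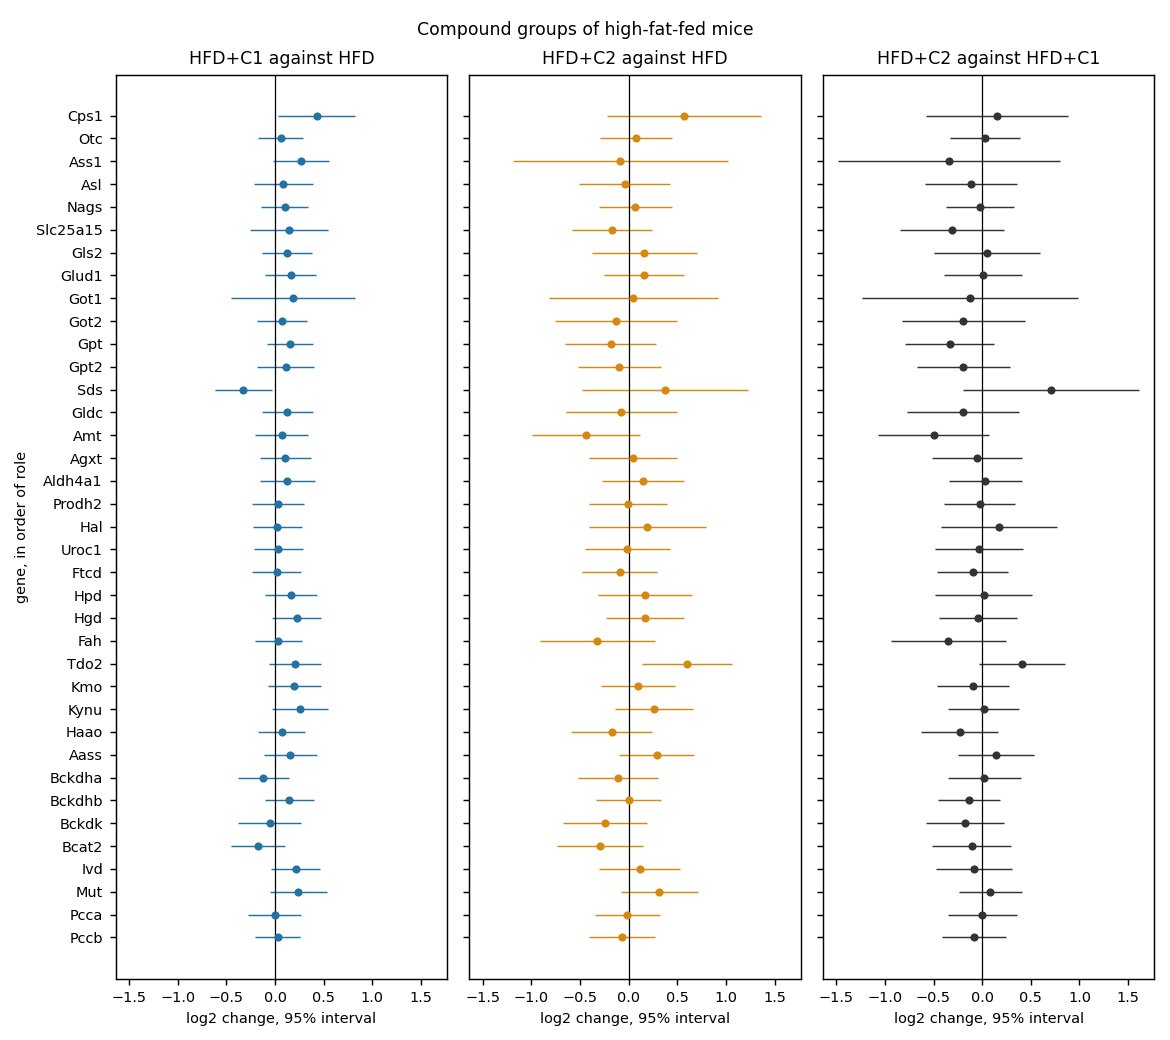
Log2 change with its 95% interval (horizontal axes) for 37 of the 38 genes (vertical axis, in order of role) in HFD+C1 against HFD, HFD+C2 against HFD, and HFD+C2 against HFD+C1; all 3 panels share the horizontal scale. None of the 38 was called in any of the 3 comparisons, and the intervals are narrower for C1 than for C2 (median distance from the estimate to the end of the interval 0.27 and 0.43).

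The third comparison asks the same of C2. Of the 38 genes, 0 were called, against 0.0222% of 13503 genes (3 in all, each lower in HFD+C2), and the smallest adjusted p was 0.695. One gene, Tdo2, had an unadjusted p under 0.05, or 2.63% of the 38 against 6.89% of all genes. With voom library weights there were 6 (15.8% against 17.4%). DESeq2 called 0 of the 38. Of the 38 log2 changes 19 were above 0, against 52.2% of all genes, and the median was 0.02, as it was over all genes (-0.02 and -0.03 when scaled by library size alone). Intervals lay between -1 and 1 for 34 of 38 genes. Without HFD+C2 replicate 1, 0 of the 38 were called, 7 had an unadjusted p under 0.05 (18.4% against 11.1% of all genes), 25 of 38 were above 0 (50.1% of all genes) and the median was 0.15. Groups then did not overlap for 16 of the 38 (14 higher, 2 lower), or 42.1% against 27.3% of all genes.

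Tdo2, the first step of tryptophan breakdown in liver (chr3:81958412-81975728), was at 2137, 2074 and 1643 CPM in HFD+C2 and at 1166, 1438 and 1221 CPM in HFD. All HFD+C2 libraries were above all HFD libraries, replicate 1 included. Its log2 change was 0.605 (SE 0.21, 95% interval 0.14 to 1.07, adjusted p = 0.695). It was 0.54 without HFD+C2 replicate 1.

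Aass was at 219, 261 and 213 CPM in HFD+C2 against 177 to 209 CPM in HFD, with no overlap (log2 change 0.29, SE 0.17, adjusted p = 0.699; 0.19 without HFD+C2 replicate 2). Mut was at 157, 156 and 151 CPM against 103.5, 148 and 120 CPM, also with no overlap (0.31, SE 0.18, adjusted p = 0.698; 0.20 without HFD replicate 1). Otc, at 510 to 558 CPM against 499 to 507 CPM, was the other gene of the 4 without overlap, or 10.5% against 13.6% of all genes. On the library-size scale Aass, Mut and Otc overlapped and Tdo2 did not.

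Amt was at 24.2, 45.2 and 48.9 CPM in HFD+C2 and at 56.5, 48.9 and 54.5 CPM in HFD (log2 change -0.44, SE 0.25, adjusted p = 0.696). HFD+C2 replicate 1 was far below the rest, and the value was -0.18 without it. Cps1 was at 812, 2121 and 1445 CPM in HFD+C2, against 797.5, 1330 and 811 CPM in HFD. Replicate 1 lay inside the HFD range and the other HFD+C2 libraries above it. Its log2 change was 0.57 (SE 0.35, adjusted p = 0.700), and with each library left out it ran from 0.19 to 0.86.

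Several members were lower in HFD+C2 replicate 1 than in the other libraries of that group. Ass1 was at 689 CPM there, against 3756 and 3174 CPM in replicates 2 and 3. Fah was at 303 CPM against 598 and 588 CPM, and Got2 at 285 CPM against 565 and 625.5 CPM. Gldc was at 99.8 CPM against 194 and 192 CPM, and Got1 at 71.5 CPM against 259 and 157 CPM. With that library the Ass1 log2 change was -0.08, and without it 0.37. Sds stood out in another library, at 221.5 CPM in HFD+C2 replicate 2 against 71.4 and 81.6 CPM in replicates 1 and 3.

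**Figure D4:**
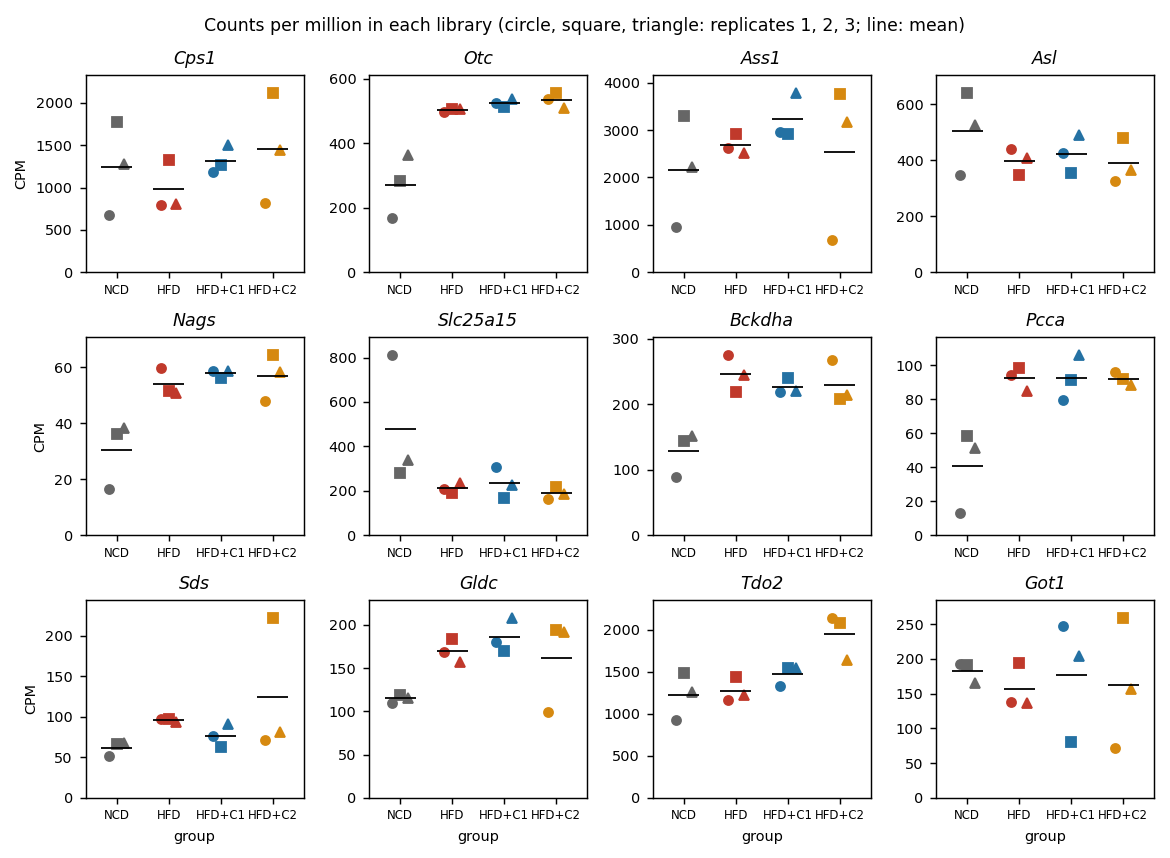
CPM of 12 genes (vertical axes, from 0) by group (horizontal axes); each point is a library (circle, square and triangle for replicates 1, 2 and 3) and the line is the group mean. Otc, Nags, Bckdha, Pcca, Sds and Gldc lie higher and Slc25a15 lower in all HFD than in all NCD libraries, Tdo2 lies highest in HFD+C2, and Ass1 is at 689 CPM in HFD+C2 replicate 1.

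Among other pathway genes 0 of 58 were called for C2, against 0.0222% of all genes, and 1 had an unadjusted p under 0.05 (6.89% of all genes). That gene was Rhbg (an ammonia transporter of hepatocytes near the central vein), at 4.45, 4.46 and 3.89 CPM in HFD+C2 and at 8.43, 7.96 and 7.44 CPM in HFD. Its groups lay well apart, with a log2 change of -0.91 (SE 0.18, adjusted p = 0.606). Pcbd1 (of tetrahydrobiopterin recycling) had a log2 change of -0.47 (adjusted p = 0.695). Kupffer cell and macrophage markers summed to 166 to 404 CPM in HFD+C2, highest in replicate 1, against 130 to 172 CPM in HFD, and their part was not tested.

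C1 and C2 were given at the same dose over the same time and were compared directly. Of the 38 genes, 0 were called, and 0 of 13229 genes overall (0.00%). Unadjusted p-values under 0.05 came to 0 of the 38, against 4.60% of all genes. DESeq2 called 3 genes in all, with 0 of the 38 among them. The log2 difference (HFD+C2 minus HFD+C1) was above 0 for 15 of 38 (7 when scaled by library size alone), against 51.7% of all genes, with a median of -0.05. The 51.7% is on the TMM scale, and no share of all genes is given for the library-size scale. Intervals reached 0.42 to either side of the estimate at the median and lay between -1 and 1 for 34 of 38 genes, so differences within those bounds were not resolved.

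Tdo2 was higher in every HFD+C2 library (1643 to 2137 CPM) than in any HFD+C1 library (1325, 1545 and 1542 CPM), with a log2 difference of 0.41 (SE 0.20, 95% interval -0.03 to 0.86, adjusted p = 0.841). Amt was lower in every HFD+C2 library, against 64.0, 52.7 and 51.1 CPM in HFD+C1, with a difference of -0.50 (SE 0.25, interval -1.07 to 0.07). Sds, at 71.4 to 221.5 CPM against 62.1 to 91.0 CPM, overlapped (0.71, SE 0.40, interval -0.20 to 1.61), and its difference was -0.00 without HFD+C2 replicate 2 and 0.98 without HFD+C2 replicate 1 (unadjusted p = 0.00899, adjusted p = 0.780).

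Gpt was at 217, 339 and 328 CPM in HFD+C2 and at 363, 361 and 393 CPM in HFD+C1, without overlap (-0.33, SE 0.20, interval -0.79 to 0.13). Fah (-0.35, SE 0.26) and Haao (-0.23, SE 0.17) were lower in each HFD+C2 library too. The adjusted p was 0.841 or 0.842 for each of these 6. Groups did not overlap for 6 of the 38, Pccb being the other one, or 15.8% against 12.0% of all genes. Without HFD+C2 replicate 1 the differences were 0.34 for Tdo2, -0.25 for Amt, -0.16 for Gpt, -0.13 for Haao and -0.09 for Fah, and 4 of the 38 had an unadjusted p under 0.05 (10.5% against 6.33%). Then 22 of 38 were above 0, against 49.6% of all genes, and 9 did not overlap between groups, or 23.7% against 23.0%. Of the other pathway genes, 0 of 58 were called, as over all genes, and 1 had an unadjusted p under 0.05 (4.60% of all genes). Rhbg had the smallest p (log2 difference -0.98, SE 0.17, adjusted p = 0.841), followed by Pcbd1 (-0.43) and Oat (-0.41).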

How the data were processed

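Raw counts per gene were deposited by the authors in 3 tables, with the same HFD columns in each (0 cells differ); the tables are called normalized, but the values are whole numbers with unequal totals. Per the submitters' processing notes, Trimmomatic 0.39, STAR 2.7, DESeq2 and mm10 were used; annotation and strand use are not given in the sources used here. The 4 rows that name no gene (27.3% to 58.2% of reads) were left out.

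A gene was kept for a comparison where its 6 libraries averaged 10 counts or more, and was tested with edgeR 4.0.16 in R 4.3.3 (quasi-likelihood test, TMM, Benjamini-Hochberg over all genes, call at an adjusted p under 0.05), without covariates; the SE is the log2 change divided by the square root of F. All 38 members passed this filter in each comparison. Alternatives were other scalings, DESeq2 1.42.0, other filters, all 12 libraries, a replicate block, each library left out, and limma 3.58.1 voom with library weights (added after seeing the data). The procedure was tested on simulated counts that held no library standing apart from its group, so that test does not cover such libraries. P-values measure the spread between these samples only, and floors cover counting error only.

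The members and lists were chosen with earlier results of these data known. The rule was to name all 38 genes and give library values with tests for the cycle enzymes in the diet comparison and, per comparison, the 6 uncalled members with the smallest p. Other pathway genes are named where called, or else the 3 with the smallest p; further genes were chosen after their values were seen. A member and another pathway gene that this rule names are not reported here; counts and medians over the 38 include the member.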

Additional observations from a re-analysis of the deposited data

Results flagged for a closer look

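In HFD+C2 replicate 1, 47.1% of reads were not assigned to a gene, against 31.9% to 33.0% in the 3 HFD libraries that serve as controls of that comparison. These reads lie outside the gene counts that were tested. The same library held the lowest level of 12 of the 38 genes.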

How the results depend on the processing

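For the diet, the number of the 38 genes called was 0 with all 6 libraries and ranged from 0 to 9 with each library left out. It was 9 without NCD replicate 1 (13.7% of all genes called). Without NCD replicate 2 it was 1 (Slc25a15), with an unadjusted p under 0.05 for 31.6% of the 38 and 33.7% of all genes. It was 8 with DESeq2 (6 higher, 2 lower), 10 with no filter on low counts (12.7% of all genes then called), 5 with all 12 libraries in one fit and 12 with voom library weights (23.2% of all genes), and stayed 0 with the median-ratio, upper-quartile and library-size scalings and with a mean of at least 50 counts; the cause was not tested. For C1 it ranged from 0 to 1 with each library left out and was 0 under every other alternative run. For C2, and for C2 against C1, it was 0 under every alternative run. Library-size scaling moved the median diet change of all genes from -0.02 to -0.24 and that of the 38 from 0.26 to 0.04, with 20 of 38 above 0.

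Same-numbered samples share only a number (correlations of their deviations ran from -0.24 to 0.32). A replicate block left 0 of the 38 genes called in each of the 4 comparisons. Over all genes it moved the number of calls from 836 to 483 for diet and from 7 to 36 for C1. Of the 6 samples in a comparison, 0 to 4 correlated best with their own number.

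Uncalled log2 changes took the other sign under some alternative other than leaving out a library for 11 genes in the diet comparison, 5 for C1, 10 for C2 and 13 for C2 against C1, and with some library left out for 11, 12, 15 and 22. On the library-size scale the overlap of groups changed for 6, 3, 5 and 0 genes. NCD replicate 2 had 4281210 reads in genes, and the 95% interval for diet reached 0.48 to either side of the estimate at the median.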

Other observations

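Of 10 regulators of amino acid breakdown, 1 was called for diet, against 6.03% of all genes, and 2 without NCD replicate 1 (Ppara higher, Atf4 lower), against 13.7%. Ppara (a nuclear receptor for fatty acids that is known to act on amino acid genes in liver) rose from 32.1, 61.4 and 41.7 CPM in NCD to 100.5, 103 and 87.2 CPM in HFD, with a log2 change of 1.13 (SE 0.25, edgeR adjusted p = 0.0419). Atf4 (the factor of the amino acid response) was at 285, 171 and 220 CPM in NCD and at 133, 114 and 135 CPM in HFD, without overlap (-0.80, SE 0.22, adjusted p = 0.0621; 0.0235 without NCD replicate 1). Hnf4a had a log2 change of 0.83 and Cebpa of 0.55, neither called. Cebpb was at 13.7, 15.1 and 19.96 CPM in HFD+C2, below all HFD libraries (43.1, 30.5 and 27.8 CPM), with a log2 change of -1.07 (SE 0.22, adjusted p = 0.625).

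Urea is made mainly near the portal vein, and 1 of 6 listed periportal genes was called for diet, against 6.03% of all genes. Cdh1 (E-cadherin) fell from 122, 51.0 and 57.7 CPM in NCD to 6.01, 18.4 and 6.43 CPM in HFD (log2 change -2.88, SE 0.51, adjusted p = 0.0266). The other periportal genes were not called, with 5 of the 6 listed above 0 (48.5% of all genes), and Pigr at 560 to 733 CPM in NCD and 963 to 1072 CPM in HFD (0.69, adjusted p = 0.0624). Pigr was called higher without NCD replicate 1 (adjusted p = 0.0251). Of 9 pericentral genes 0 were called for diet, C1 or C2 (edgeR), with 4, 3 and 1 at an unadjusted p under 0.05 (28.9%, 7.75% and 6.89% of all genes). For diet 7 of the 9 had log2 changes below 0 and 2 above 0 (48.5% of all genes), with a median of -0.60. Without NCD replicate 1, edgeR called 4 for diet, or 44.4% of the 9 against 13.7% of all genes: Cyp2e1 higher (adjusted p = 0.0453) and Oat (0.0293), Slc1a2 (0.0357) and Cyp1a2 (0.0123) lower. In HFD+C1 against HFD all 9 had log2 changes above 0, against 51.2% of all genes, with a median of 0.26.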
